A study of Rattus norvegicus with 24 samples.

Results

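Rat lungs exposed to whole-cigarette smoke condensate (WCSC) at 5 mg/mL and collected at 12 days are compared here with control rat lungs collected at 12 days. WCSC is the tar-like material collected from the smoke of cigarettes, a mixture of combustion products that includes polycyclic aromatic hydrocarbons and nicotine. The comparison uses 6 of the 24 libraries of the series, chosen by the dose and day on their labels: 3 libraries of the 5 mg/mL group and 3 of the control group, with every gene that passed a filter on low counts (11421 of 16881 distinct gene symbols). The lungs exposed to 10 and 20 mg/mL for 12 days, and the 5 mg/mL and control lungs of 6 days, 3 libraries each, serve for 2 further questions, whether the lowest dose differs from the higher doses and whether its effect differs between days. All rats are labelled wild type (Rattus norvegicus), and every group, control included, is lung tissue. The labels do not state the strain, age and sex, the route of exposure or what the control rats received. Whether each library is a separate animal is not stated either, so the spread between libraries may in part be technical. The p-values measure that spread within the 8 groups of all 24 libraries, the 10 and 20 mg/mL lungs of 6 days included.

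Smoke constituents reach several sensors in the lung. Planar aromatic hydrocarbons bind the aryl hydrocarbon receptor (Ahr), which switches on cytochromes P450 of family 1. Electrophiles release NRF2, which switches on antioxidant enzymes such as Nqo1 and Hmox1. Macrophages and epithelial cells answer smoke particles with cytokines (Tnf, Il1b, Ccl2, Cxcl1), which recruit neutrophils, and smoke-fed macrophages are known for Mmp12, an elastase, and for lipid storage. Club cells (Scgb1a1) and alveolar type II cells (Sftpc) are the secretory cells of airway and alveolus.

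The 3' tag libraries held 7820928, 6772757 and 6440707 counts in the 5 mg/mL group, against 5048827, 5322816 and 7012093 counts in the control group, within the range of 4795667 to 11109713 over the series. At an equal depth of 4758014 counts, 12160, 11938 and 12225 genes were detected in the exposed libraries, against 11751, 12294 and 12143 in the control libraries. The lung identity of the libraries was plain: Sftpc, the alveolar type II surfactant protein, stood at 9636, 9984 and 10702 CPM (counts scaled to a common library size) in exposed lungs, against 9921, 8552 and 7905 CPM in control lungs, and Ager, an alveolar type I marker, averaged 5988 ± 639 CPM in exposed lungs and 6037 ± 1453 CPM in control lungs (SD, n = 3 each). Exposed libraries correlated with each other at 0.957 to 0.967 (Pearson, log2 CPM across genes), control libraries with each other at 0.927 to 0.963, and exposed libraries with control libraries at 0.937 to 0.970. The median correlation of exposed with control libraries, 0.9591, lay above that within the control group, 0.9345, and below that within the exposed group, 0.9633.

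No gene was called at 5 mg/mL in 12 days. In edgeR's quasi-likelihood test with Benjamini-Hochberg adjustment, 0 of 11421 genes were higher and 0 were lower at an adjusted p under 0.05 (0% each way), and the smallest adjusted p was 0.9998. At an unadjusted p under 0.05 there were 143 genes (1.25%), 69 higher (0.604%) and 74 lower (0.648%), where uniform p-values would give 571. DESeq2 called 1 gene (0.00876%), the zymogen-granule glycoprotein gene Gp2, and put 182 genes (1.59%) under an unadjusted 0.05. Limma voom with sample quality weights called 0 (0%) and put 677 genes under that level (5.93%). Gp2 had 0 reads in each of the 3 exposed libraries, against 1.01, 0.181 and 0 CPM in control lungs, so that the DESeq2 call (adjusted p = 0.0247) rests on a few reads in 2 control libraries.

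The median log2 fold change over all genes, exposed over control, was -0.0014, with 5683 genes above 0 (49.8%) and 5738 below (50.2%), a balance that TMM scaling sets and that carries no information on the exposure. The median standard error was 0.333, so that a typical 95% interval reached 0.69 to either side of the estimate. For 6596 genes (57.8%) the whole interval lay within a 2-fold difference in either direction (log2 between -1 and 1), while for the others a change of that size was not resolved. In 440 genes (3.85%) all 3 exposed libraries lay above all 3 control libraries, and in 450 (3.94%) all 3 lay below.

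**Figure D1:**
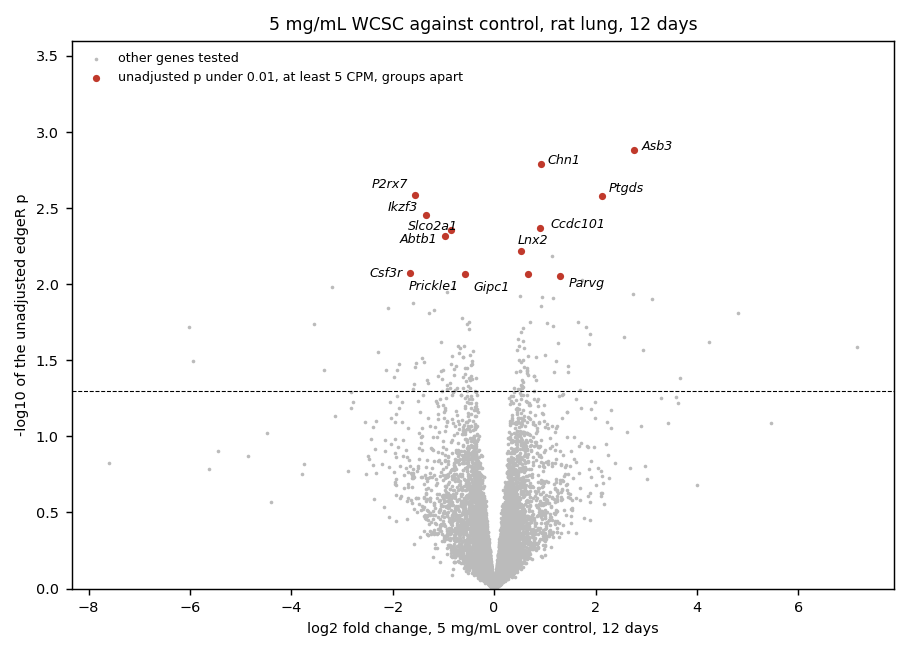
Log2 fold change (5 mg/mL over control, 12 days; x axis) against the negative log10 of the unadjusted edgeR p (y axis) for 11421 genes, with the dashed line at an unadjusted 0.05. The 13 red genes are those under an unadjusted 0.01, a mean of 5 CPM or more in one group and groups that do not overlap; none passed adjustment, and 143 genes lie above the line.

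The genes that stood furthest apart were 13 with an unadjusted edgeR p under 0.01, a mean of 5 CPM or more in the group where they were higher, and separate groups, 7 higher (0.0613% of genes tested) and 6 lower (0.0525%). They were selected for that separation, so their values are a description and carry no further test. None was past the adjusted threshold.

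Asb3, a substrate adaptor of a ubiquitin ligase, had 11.4, 7.54 and 17.5 CPM in exposed lungs, against 2.63, 0.903 and 1.80 CPM in control lungs. This was the gene with the smallest p, with means of 12.1 ± 5.03 CPM in exposed and 1.78 ± 0.863 CPM in control lungs (SD, n = 3 each) and a log2 fold change of 2.77 (SE 0.75, 95% interval 1.20 to 4.33). Chn1, a chimaerin that inactivates the GTPase Rac, stood at 58.8, 44.5 and 43.6 CPM in exposed lungs, against 21.2, 24.7 and 31.8 CPM in control lungs (log2 fold change 0.91, SE 0.26). Lnx2, a ubiquitin ligase with PDZ domains, was the tightest of the 13, at 30.7, 29.5 and 28.5 CPM in exposed lungs, against 20.6, 21.3 and 19.7 CPM in control lungs (log2 fold change 0.53, SE 0.17). The spread within each of its groups was small beside the gap between them. Gipc1, a PDZ adaptor of receptor trafficking, had 61.0, 44.5 and 49.1 CPM in exposed lungs, against 36.0, 34.7 and 27.2 CPM in control lungs (0.66, SE 0.23). Ccdc101, a subunit of the SAGA histone acetyltransferase complex, had 20.2, 18.4 and 15.1 CPM in exposed lungs, against 12.3, 10.5 and 6.11 CPM in control lungs (0.90, SE 0.28). On the lower side, Prickle1, of the planar cell polarity pathway, had 68.8, 62.1 and 59.6 CPM in exposed lungs, against 109.8, 81.4 and 90.9 CPM in control lungs (-0.57, SE 0.20). Abtb1, an ankyrin-repeat and BTB-domain protein, had 6.25, 7.23 and 10.5 CPM in exposed lungs, against 16.2, 15.2 and 15.96 CPM in control lungs (-0.98, SE 0.31).

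Ptgds and Slco2a1, which both act on prostaglandins, lay on opposite sides of control. Ptgds, which makes prostaglandin D2, had 9.31, 8.44 and 5.93 CPM in exposed lungs, against 1.41, 2.17 and 1.80 CPM in control lungs (log2 fold change 2.12, SE 0.63). Slco2a1, the transporter that clears prostaglandins from the outside of the cell, had 19.4, 17.9 and 20.0 CPM in exposed lungs, against 38.6, 24.9 and 40.2 CPM in control lungs (-0.86, SE 0.27). In both genes the 3 libraries of the lower group lay close together.

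Parvg, P2rx7, Ikzf3 and Csf3r are known from blood cells, but which cells of the lung made these transcripts was not tested. Parvg, an actin-linked adaptor of blood cells, had 13.0, 11.5 and 10.1 CPM in exposed lungs, against 2.63, 6.68 and 4.72 CPM in control lungs (log2 fold change 1.29, SE 0.45). P2rx7, the ATP-gated channel upstream of interleukin-1 release, had 6.76, 4.52 and 8.46 CPM in exposed lungs, against 18.0, 18.1 and 21.9 CPM in control lungs (-1.55, SE 0.46). Ikzf3 (Aiolos), a lymphocyte transcription factor, had 3.95, 4.37 and 5.79 CPM in exposed lungs, against 13.1, 13.0 and 9.99 CPM in control lungs (-1.35, SE 0.41). For P2rx7 and Ikzf3 the highest exposed library lay well under the lowest control library. Csf3r, the receptor for the neutrophil growth factor G-CSF, had 2.04, 3.17 and 1.93 CPM in exposed lungs, against 5.86, 9.39 and 7.36 CPM in control lungs (-1.66, SE 0.58).

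**Figure D2:**
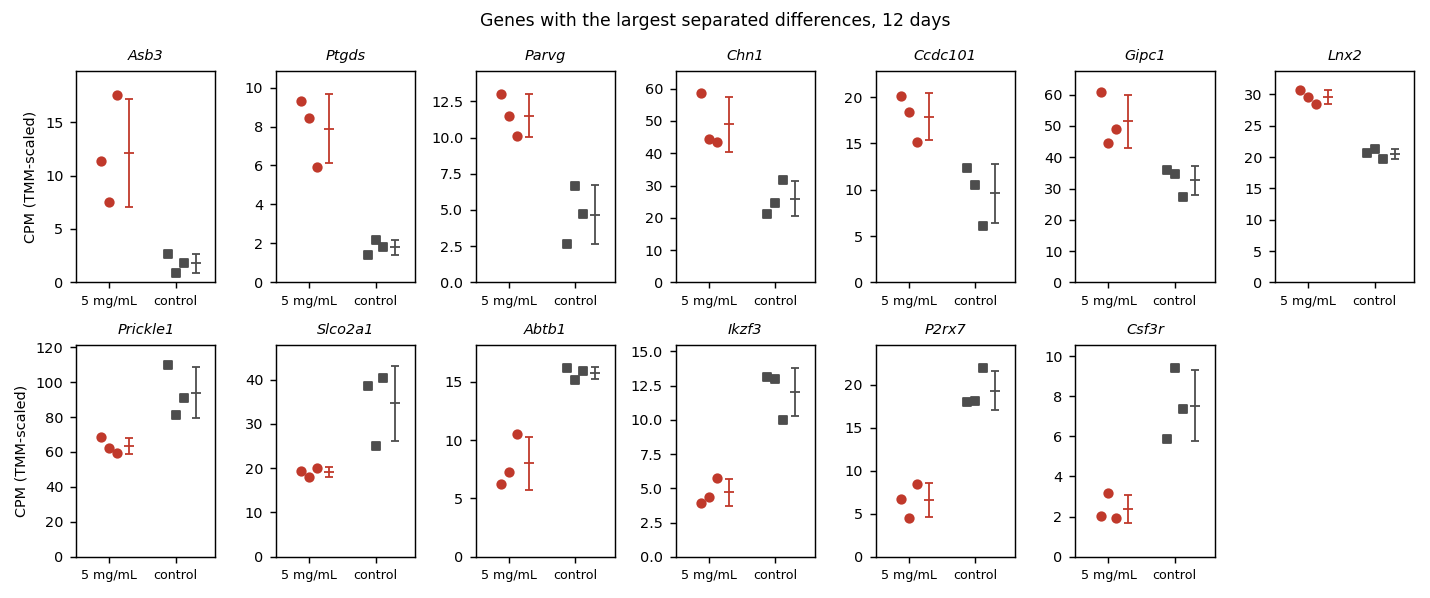
CPM (TMM-scaled, y axis, from 0) in each library for the 13 genes, exposed lungs (red circles) left of control lungs (grey squares), with mean and SD (n = 3 each) beside the points. The groups do not overlap in any panel, which is how the genes were selected; Lnx2 has the smallest fold and Asb3 the largest.

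These genes were also read in the other groups. Over the 8 groups of the series, the 12-day control mean was the highest or the lowest in 11 of the 13 genes (84.6%, against 24.3% of all genes tested), and the 5 mg/mL mean of 12 days in 8 (61.5%, against 18.3%), with both groups at opposite ends in 7, against 157 of the 11421 genes tested. Since the genes were selected on these groups, a raised share follows from the selection. Where the 12-day control mean of Asb3 was 1.78 CPM, it averaged 8.79 ± 5.34 CPM in the 5 mg/mL lungs of 6 days and 8.25 ± 1.30 CPM in the control lungs of 6 days (SD, n = 3 each). P2rx7, at a mean of 19.3 CPM in the 12-day control lungs, averaged 5.18 ± 1.07 CPM in the 5 mg/mL lungs of 6 days and 7.08 ± 2.99 CPM in their controls. Lnx2, at 20.5 CPM in the 12-day control lungs, averaged 27.2 ± 3.23 CPM in the 5 mg/mL lungs of 6 days and 26.9 ± 2.06 CPM in their controls. In these 3 genes the 12-day exposed lungs lay nearer to both groups of 6 days than the 12-day control lungs did. Ptgds differed: at 7.90 ± 1.75 CPM in the exposed and 1.80 ± 0.376 CPM in the control lungs of 12 days, it averaged 3.54 ± 1.74 CPM in the 5 mg/mL lungs of 6 days, nearer to the 12-day control lungs, and 5.92 ± 2.52 CPM in the 6-day control lungs.

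None of the sensors and enzymes that smoke is known to act on was called. Ahr, the receptor itself, had 126, 134 and 106 CPM in exposed lungs, against 200.3, 124 and 188 CPM in control lungs. Its log2 fold change was -0.49 (SE 0.19), with overlapping groups. The edgeR test put Ahr under an unadjusted p of 0.05, a level that 1.25% of all genes reached. DESeq2 gave an unadjusted p of 0.014 for Ahr (adjusted p = 0.9998). Cyp1a1, its best known target, was scarce and scattered, at 3.83, 10.1 and 5.79 CPM in exposed lungs and 0.606, 5.06 and 13.9 CPM in control lungs. Its log2 fold change was -0.02 with a 95% interval of -1.58 to 1.54, wide enough to hold a near 3-fold difference either way. Over the aryl hydrocarbon receptor list 6 of 11 genes were tested, 2 above and 4 below control, with a median of -0.06 on the log2 scale. With a library left out, that median ran from -0.29 to 0.14. The 6 include Ahr itself, Arnt and Nqo1, which is also on the NRF2 list, so the median is only a rough measure of target genes.

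NRF2 targets were measured more closely. Nqo1, a quinone reductase, had 45.4, 39.2 and 33.1 CPM in exposed lungs, against 49.3, 41.2 and 36.4 CPM in control lungs, with a log2 fold change of -0.11 and an interval of -0.56 to 0.34. Hmox1, which degrades heme, had 33.3, 63.9 and 70.8 CPM in exposed lungs, against 42.6, 40.3 and 28.3 CPM in control lungs (0.60, interval -0.12 to 1.31). Of the 26 NRF2 antioxidant genes, all tested, 14 were above and 12 below control, with a median of 0.01 and 1 member above control in all libraries (3.85%, the same as the 3.85% of all genes). Glutathione S-transferases (17 tested, median 0.02), metallothioneins and metal transporters (13 tested, median 0.14, and 0.05 without exposed replicate 3, 0.07 without control replicate 1, 0.31 without control replicate 2) and cytochromes P450 outside family 1 (19 tested, median -0.06) had 0 genes called and 0 under an unadjusted 0.05.

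Cytokine and chemokine genes lay on both sides of control, several with a wide spread between lungs. Tnf had 0, 3.92 and 1.19 CPM in exposed lungs, against 0.404, 0.181 and 0 CPM in control lungs, and its fitted log2 fold change of 3.12 (SE 1.15) rests on these few reads. Il1b had 38.5, 45.7 and 38.4 CPM in exposed lungs, against 55.2, 73.1 and 48.2 CPM in control lungs, without overlap (log2 fold change -0.52, SE 0.34, interval -1.23 to 0.18). Of the 21 tested cytokine and NF-kappaB genes, only Il1b was below control in all libraries (4.76%, near the 3.94% of all genes). Ccl2, the monocyte chemokine, had 13.3, 1.66 and 10.5 CPM in exposed lungs, against 1.01, 5.42 and 7.08 CPM in control lungs (0.90, SE 0.79). Cxcl1, a neutrophil chemokine, also ran across the groups, at 27.4, 6.63 and 24.5 CPM in exposed lungs and 5.05, 9.03 and 31.2 CPM in control lungs (0.36, SE 0.79). Nfkbia, an inhibitor of NF-kappaB and one of its own targets, was abundant and overlapped, with means of 1433 ± 495 CPM in exposed lungs and 1721 ± 212 CPM in control lungs. The 21 tested genes of the cytokine and NF-kappaB list had 12 above and 9 below control and a median of 0.32, which was 0.08 without exposed replicate 1, 0.12 without exposed replicate 3, 0.20 without control replicate 1 and 0.13 without control replicate 2.

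Most genes of the lipid-laden macrophage list lay slightly above control, none of them called. Whether macrophages or other lung cells made these transcripts was not tested. Of 23 lipid-laden macrophage genes 20 were above control (87%, against 49.8% of all genes), with a median log2 fold change of 0.19 and 3 members (13%, against 3.85% of all genes) above control in all libraries. Those 3 were Trem2, a lipid-sensing receptor, at 9.95, 10.5 and 11.3 CPM in exposed lungs against 6.06, 6.14 and 8.60 CPM in control lungs, the lysosomal protease gene Ctsb, and Npc2, which carries cholesterol out of lysosomes. Ctsb had 501, 505 and 495 CPM in exposed lungs, against 417, 453 and 448 CPM in control lungs. Npc2 had 1186, 1639 and 1146 CPM in exposed lungs, against 1113, 1016 and 797 CPM in control lungs. Mmp12 had 2.04, 8.29 and 6.53 CPM in exposed lungs, against 1.01, 3.97 and 1.67 CPM in control lungs, and its interval ran from -0.87 to 3.53 around 1.33. Gpnmb, a lysosomal protein of foam cells, was level, with means of 158 ± 62.3 CPM in exposed lungs and 156 ± 56.1 CPM in control lungs. None of the 23 had an unadjusted p under 0.05. General macrophage identity genes were near level, with 11 of 18 above control and a median of 0.07. Only 1 of them (5.56%, near the 3.94% of all genes) was below control in all libraries. This was Msr1, a scavenger receptor, at 1.64 ± 0.152 CPM in exposed lungs and 3.68 ± 1.28 CPM in control lungs.

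B cell and neutrophil genes were among the lists with medians furthest below control. In bulk lung, fewer cells of a type and less RNA per cell cannot be told apart. Genes of the same cell type can vary together, so list members below control in all libraries need not be separate observations. Of 19 listed B cell and plasma cell genes 14 were tested, 12 of them below control (85.7%, against 50.2% of all genes), with a median log2 fold change of -0.81, 0 called, 5 under an unadjusted 0.05 and 4 below control in all libraries (28.6%, against 3.94% of all genes). Ms4a1 (CD20) had 2.42, 3.77 and 4.75 CPM in exposed lungs, against 17.4, 7.94 and 7.63 CPM in control lungs. For this surface marker of B cells the groups did not overlap, and control replicate 1 was the highest library. Cd79b, a signalling subunit of the B cell receptor, had 7.53, 10.1 and 3.86 CPM in exposed lungs, against 27.3, 18.2 and 7.49 CPM in control lungs, with a log2 fold change of -1.29 (SE 0.49) and 1 control library inside the exposed range. Fcrla, a B cell Fc receptor-like protein, had 98.8 CPM in control replicate 2 and 16.7 to 25.9 CPM in the other 2 control libraries, against 12.5 to 18.8 CPM in exposed lungs. Plasma cell genes of the list were mixed. Tnfrsf17 (BCMA), a survival receptor of plasma cells, was below in all libraries, at 2.88 ± 0.117 CPM in exposed lungs and 5.59 ± 0.584 CPM in control lungs. Mzb1 was at 7.10 ± 0.770 CPM in exposed lungs and 6.70 ± 2.82 CPM in control lungs, and Xbp1 and Sdc1, which epithelial cells express too, had log2 fold changes of 0.17 and -0.04. Leaving out any 1 of the 6 libraries kept the list's median between -0.996 and -0.717.

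T cell and NK cell genes were nearer to level, with 7 of 26 tested genes above control and a median of -0.15, which ran from -0.30 without control replicate 1 to -0.01 without exposed replicate 2. Cd3g, a chain of the T cell receptor complex, had 1.79, 3.01 and 1.34 CPM in exposed lungs, against 9.90, 5.42 and 2.91 CPM in control lungs (log2 fold change -1.56, SE 0.69). Cd8a was near level, at 12.1 ± 0.681 CPM in exposed lungs and 13.8 ± 2.39 CPM in control lungs.

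Neutrophil genes were below control in 12 of 16 tested members (75%), with a median of -0.50 (-0.78 without exposed replicate 2), and 5 (31.2%, against 3.94% of all genes) were below in all libraries. S100a8 and S100a9 encode the subunits of calprotectin, the main cytosolic protein of neutrophils. S100a8 had 71.7, 154 and 62.3 CPM in exposed lungs, against 208, 214 and 202 CPM in control lungs (log2 fold change -1.11, SE 0.59). S100a9 had 137, 243 and 122 CPM in exposed lungs, against 301, 365 and 334 CPM in control lungs (-0.99, SE 0.53). Exposed replicate 2 was the highest exposed library for both, so these genes varied together and are not separate observations. The other 3 of the 5 were Csf3r, Camp (cathelicidin), at 2.41 ± 0.368 CPM in exposed lungs and 4.98 ± 0.392 CPM in control lungs, and Il1r2, the decoy interleukin-1 receptor, at 2.10 ± 0.322 CPM in exposed lungs and 3.64 ± 0.692 CPM in control lungs. Lcn2, which airway epithelium also makes, was not among them, at 41.7, 151 and 2.52 CPM in exposed lungs and 56.0, 37.7 and 40.9 CPM in control lungs. Np4, a neutrophil defensin, had 0 reads in every exposed library, and with it set to a bound of 3 reads the median stayed at -0.50.

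**Figure D3:**
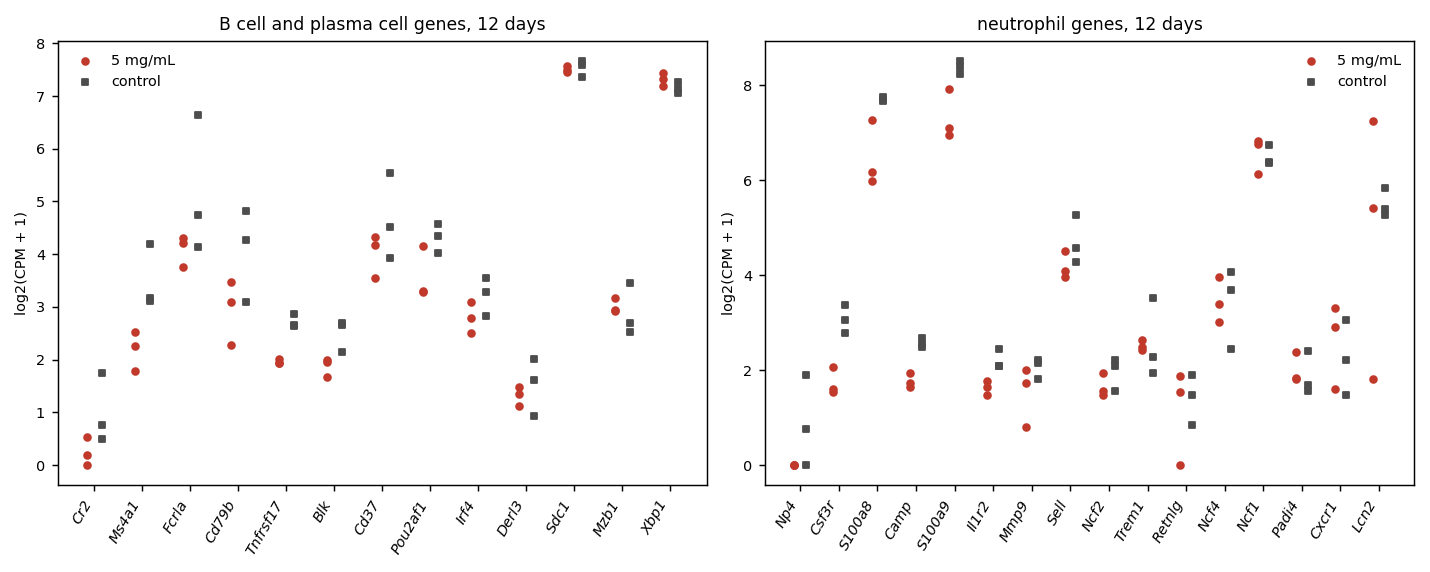
Log2(CPM + 1) of tested B cell and plasma cell genes (left, 13 of 14 genes) and neutrophil genes (right, 16 genes) in the 3 exposed (red circles) and 3 control (grey squares) libraries of 12 days, genes ordered by log2 fold change from lowest to highest. Ms4a1, Blk and Tnfrsf17 on the left, and Csf3r, S100a8, S100a9, Camp and Il1r2 on the right, have all exposed libraries below all control libraries.

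Red blood cell transcripts lay on the same side as these leukocyte genes. All 13 tested red blood cell and globin genes were below control, with a median log2 fold change of -0.70. Of these, 4 (30.8%, against 3.94% of all genes) were below in all libraries. Slc4a1, the anion exchanger of red cells, had 12.1, 12.2 and 2.23 CPM in exposed lungs and 21.2, 21.1 and 15.4 CPM in control lungs. The others were the globin genes Hbb-b1, LOC689064 and LOC287167, each lowest in exposed replicate 3 and highest in control replicate 1. They varied together, so the 4 are not separate observations. Globin transcripts made up 2.06%, 2.14% and 1.22% of counts in exposed lungs, against 3.09%, 2.64% and 2.19% in control lungs. Hba1 and Hba2 had nearly the same value in every library, so that reads of these alike genes cannot be assigned with certainty. Whether blood retained in the lung contributed to the B cell and neutrophil values was not tested.

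Lung structural cells differed by small amounts. All 15 tested alveolar type II and surfactant genes were above control, with a median of 0.20 and a range of 0.03 to 0.35 on the log2 scale, and 2 were above in all libraries (13.3%, against 3.85% of all genes): Sftpa1 averaged 7113 ± 790 CPM in exposed lungs and 5835 ± 278 CPM in control lungs, and Sftpb averaged 3655 ± 107 CPM in exposed lungs and 2949 ± 215 CPM in control lungs. Smooth muscle and pericyte genes were above control in 12 of 14 members (median 0.31, and 0.12 without exposed replicate 1). The myosin kinase gene Mylk overlapped between the groups, at 801 ± 129 CPM in exposed lungs and 851 ± 57.3 CPM in control lungs, and Acta2, smooth muscle actin, overlapped too, at 436, 234 and 269.9 CPM in exposed lungs and 236, 193 and 219 CPM in control lungs. Endothelial genes were below control in 18 of 25 members (median -0.15, and -0.07 without control replicate 1). Aplnr, the apelin receptor of capillary endothelium, had 314, 317 and 299.9 CPM in exposed lungs, against 654, 364 and 440.2 CPM in control lungs, without overlap (log2 fold change -0.65, SE 0.32). Scgb1a1, the club cell secretoglobin and one of the most abundant transcripts, had 15736, 17844 and 7141 CPM in exposed lungs, against 7931, 10277 and 9349 CPM in control lungs, with 2 exposed libraries above and 1 below every control library (0.56, SE 0.48).

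Airway and heart transcripts depended most on control replicate 2. The median of the 12 tested club and goblet genes was -0.22, and 1.31 without that library. The median of the 16 ciliated cell genes was 0.13, and 0.85 without it. Other libraries also moved the ciliated median. It was -0.12 without exposed replicate 2, -0.10 without control replicate 1, -0.01 without control replicate 3 and 0.40 without exposed replicate 3. The 13 tested heart muscle genes had the lowest median of all lists, -1.30. That median was 0.09 without control replicate 2 and -2.03 without control replicate 3. Their summed level was 130, 86.1 and 51.6 CPM in exposed lungs and 50.7, 173 and 75.2 CPM in control lungs. Actc1 made up most of that sum in each library but control replicate 2, while Nppb, Myl2 and Tnnc1 had 0 reads in all 6 libraries. These transcripts can come along with the tissue taken, and their part in the other results was not tested.

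Among stress lists, immediate-early and heat shock genes lay mostly above control while p53 and ER stress genes were divided, and no member of any was called. Of 19 tested p53 target genes 7 were above control (median -0.04), and of 24 ER stress genes 13 were (median 0.01). Of 21 tested immediate-early genes 15 were above control (71.4%), the median was 0.27, and 5 (23.8%, against 3.85%) were above in all libraries. Junb, an AP-1 subunit, had 103, 63.3 and 71.1 CPM in exposed lungs, against 41.2, 41.5 and 55.1 CPM in control lungs (log2 fold change 0.78, SE 0.36). Fos, its partner in AP-1, had 26.4, 39.0 and 25.7 CPM in exposed lungs, against 14.1, 8.13 and 13.7 CPM in control lungs (1.34, SE 0.72). Of 23 heat shock and chaperone genes 17 were above control (median 0.14), and 4 (17.4%, against 3.85% of all genes) were above in all libraries. That median was 0.22 without exposed replicate 3 and 0.25 without control replicate 2. Hspa1b, an inducible HSP70 gene, had 43.9, 199.7 and 58.0 CPM in exposed lungs, against 38.2, 27.8 and 30.4 CPM in control lungs (1.65, SE 0.64), so that exposed replicate 2 sets much of the mean. Hspa1a, its near-identical copy, had a log2 fold change of 0.68, and the split of reads between the copies is uncertain. Dnaja1, a co-chaperone of HSP70, had 141, 163 and 150.2 CPM in exposed lungs, against 70.9, 128 and 115 CPM in control lungs (0.53, SE 0.21).

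Fatty acid and cholesterol synthesis genes showed no common direction, while most oxidative phosphorylation genes lay slightly above control. Of 27 tested fatty acid and cholesterol synthesis genes 14 were above and 13 below control (median 0.00), and 4 (14.8%, against 3.94%) were below in all libraries. Fasn, the fatty acid synthase, overlapped between the groups, at 299 ± 11.9 CPM in exposed lungs and 284 ± 27.8 CPM in control lungs. Scd1, a desaturase and one of those 4, had 153, 181 and 174 CPM in exposed lungs, against 306, 240.3 and 237 CPM in control lungs. Acaca, the rate-limiting carboxylase of fatty acid synthesis, had 2.93, 3.77 and 2.08 CPM in exposed lungs, against 7.88, 6.50 and 5.41 CPM in control lungs, and Acss2 and Scd2 had log2 fold changes of -0.47 and -0.31. Acadvl, of mitochondrial fatty acid oxidation, had 29.5, 36.9 and 26.9 CPM in exposed lungs, against 26.7, 22.03 and 20.8 CPM in control lungs (0.42, SE 0.19). Ribosomal protein genes (55 of 74 above control, median 0.07) and oxidative phosphorylation genes (52 of 71 above, median 0.08) lay mostly just above 0. Cell cycle genes were divided evenly (16 of 33 above, median -0.02), with Mcm2, a subunit of the replicative helicase, at 27.6, 29.4 and 24.0 CPM in exposed lungs and 12.1, 22.4 and 20.5 CPM in control lungs. Interferon-stimulated genes were likewise divided (15 of 28 above, median 0.06), and Mx1 averaged 39.5 ± 2.43 CPM in exposed lungs and 31.3 ± 7.69 CPM in control lungs. Serpina1, alpha-1 antitrypsin, had 19.3, 13.6 and 5.64 CPM in exposed lungs, against 28.7, 19.9 and 31.2 CPM in control lungs (-1.05, SE 0.47).

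**Figure D4:**
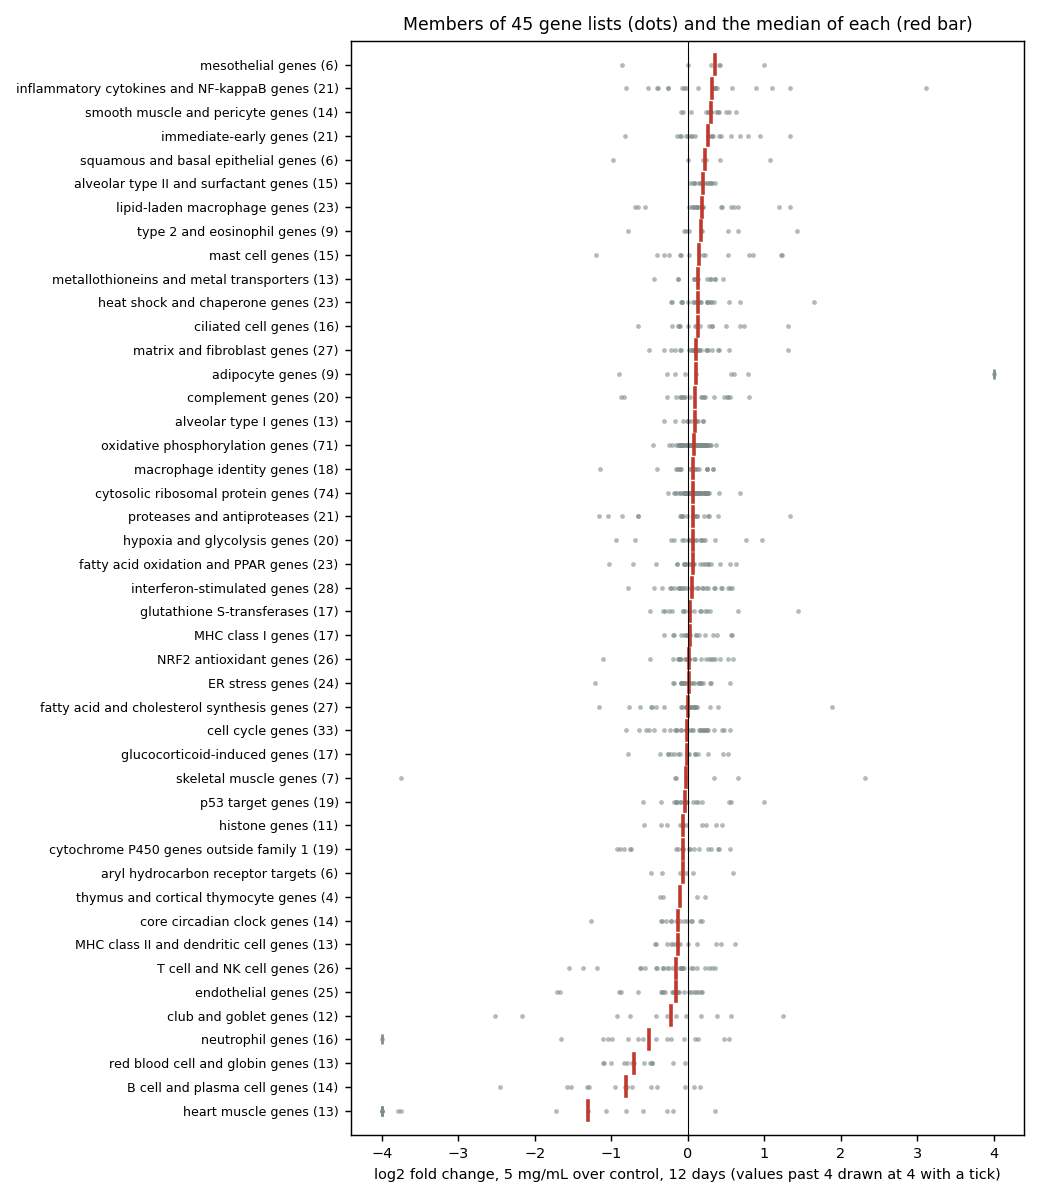
Log2 fold change (5 mg/mL over control, 12 days; x axis) of each tested member of 45 gene lists (dots) with the median of each list (red bar), ordered by median; the number tested is in brackets. Heart muscle, B cell and plasma cell, red blood cell and neutrophil genes have the lowest medians, from -1.30 to -0.50, and most other medians lie within 0.3 of 0.

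The lowest dose was then set directly against the higher doses of the same day. The 5 mg/mL lungs differed from the 10 mg/mL lungs in 0 called genes in edgeR (0%), with 169 under an unadjusted 0.05 (1.48%), 0 called by DESeq2 and 0 by limma voom. They differed from the 20 mg/mL lungs in 0 called genes in edgeR (0%), with 416 under an unadjusted 0.05 (3.64%), 137 higher (1.2%) and 279 lower (2.44%) in the 5 mg/mL lungs, while DESeq2 called 6 genes (0.0525%) and limma voom called 1 (0.00876%). The gene that limma voom called was Zbtb16 (PLZF), a transcription factor known as a sensitive target of glucocorticoids. Zbtb16 had 6.06, 3.43 and 4.72 CPM in control lungs, 1.91, 2.56 and 8.16 CPM at 5 mg/mL, 26.4, 27.4 and 21.4 CPM at 10 mg/mL, and 96.0, 34.1 and 69.1 CPM at 20 mg/mL. The 5 mg/mL lungs overlapped the controls (log2 fold change -0.17, interval -2.19 to 1.84) and lay below every lung of the higher doses. Against 20 mg/mL the log2 difference was -3.98 (SE 0.97, edgeR adjusted p = 0.9995), and -4.45 in limma voom (adjusted p = 0.0020). Zbtb16 was also called, at an adjusted p of 0.0093, when edgeR was fitted to the 12 libraries of 12 days alone, and at 0.033 when replicate 3 of the 5 mg/mL lungs of 6 days, a library outside this comparison, was left out of the fit.

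Fkbp5, a co-chaperone of the glucocorticoid receptor that glucocorticoids induce, had its highest mean at 20 mg/mL too. It averaged 26.9 ± 4.64 CPM in control lungs, 38.6 ± 14.0 CPM at 5 mg/mL, 51.5 ± 16.8 CPM at 10 mg/mL and 94.3 ± 47.0 CPM at 20 mg/mL (SD, n = 3 each). Its log2 difference between 5 and 20 mg/mL was -1.29 (SE 0.39) and did not pass adjustment. Cebpd, another glucocorticoid-induced gene, was level with control at 5 mg/mL (log2 fold change 0.00, interval -0.56 to 0.56), and averaged 202 ± 65.4 CPM in control lungs, 202 ± 47.3 CPM at 5 mg/mL, 149 ± 12.9 CPM at 10 mg/mL and 128 ± 18.9 CPM at 20 mg/mL. Over the 17 tested genes of the glucocorticoid-induced list, the 5 mg/mL lungs had 8 above and 9 below control and a median of -0.02. Ddit4, an mTORC1 inhibitor of that list, had 32.9, 39.9 and 72.7 CPM at 5 mg/mL, against 60.2, 107 and 82.2 CPM in control lungs (-0.78, SE 0.38).

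RT1-A2, an MHC class I gene, had the smallest p between 5 and 10 mg/mL and is named after its values were seen. It had 325, 250.4 and 179 CPM in control lungs, 182, 196 and 231 CPM at 5 mg/mL, 889, 1079 and 1064 CPM at 10 mg/mL and 487, 469 and 398 CPM at 20 mg/mL. The 5 mg/mL lungs lay among the controls and below all lungs of the higher doses, with a log2 difference from 10 mg/mL of -2.31 (SE 0.55) that edgeR did not call. The fit to the 12 libraries of 12 days, which leaves out those of 6 days, called this gene (adjusted p = 0.00025). At 6 days RT1-A2 scattered widely within the higher doses. It had 108, 592 and 106 CPM at 10 mg/mL, and 1015, 165.5 and 629 CPM at 20 mg/mL. In the 6-day lungs of 5 mg/mL it had 272, 455 and 299 CPM, against 182, 142 and 255 CPM in their controls. Class I genes are many and alike, and reads may be split between them. DESeq2's 6 genes against 20 mg/mL were Trdn, Gp2, Krt15, Rhoh, Sfrp2 and Bpifa1, all lower at 5 mg/mL. Gp2 had 102 CPM in 20 mg/mL replicate 2 and at most 0.198 CPM in the other 2 lungs of that dose, and Sfrp2 had 369.7 CPM in the same library, 15.8 and 30.4 CPM in the other 2, and 5.10, 11 and 6.83 CPM at 5 mg/mL. That library also held 3599 CPM of heart muscle transcripts, and without it the count of genes under an unadjusted 0.05 was 243.

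For the genes that separated 5 mg/mL from control, the 3 doses share their control lungs, so the comparisons are not independent and are set side by side only. Asb3 had log2 fold changes over control of 2.77 at 5, 2.20 at 10 and 2.31 at 20 mg/mL. P2rx7 had -1.55, -1.75 and -1.12 in that order, Lnx2 0.53, 0.60 and 0.51, and Ahr -0.49, -0.57 and -0.47. These 4 had similar values at each dose. Gipc1 had 0.66, 0.17 and -0.10, Ikzf3 had -1.35, -0.72 and 0.09, and Cd79b had -1.29, -1.05 and 0.25. In the direct comparison of 5 with 20 mg/mL, the log2 difference was 0.76 for Gipc1 (SE 0.23), -1.44 for Ikzf3 (SE 0.41) and -1.54 for Cd79b (SE 0.49), none past the adjusted threshold. The B cell and plasma cell list had a median of -0.81 at 5, -0.70 at 10 and 0.07 at 20 mg/mL, and the neutrophil list -0.50, -0.20 and -0.43.

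**Figure D5:**
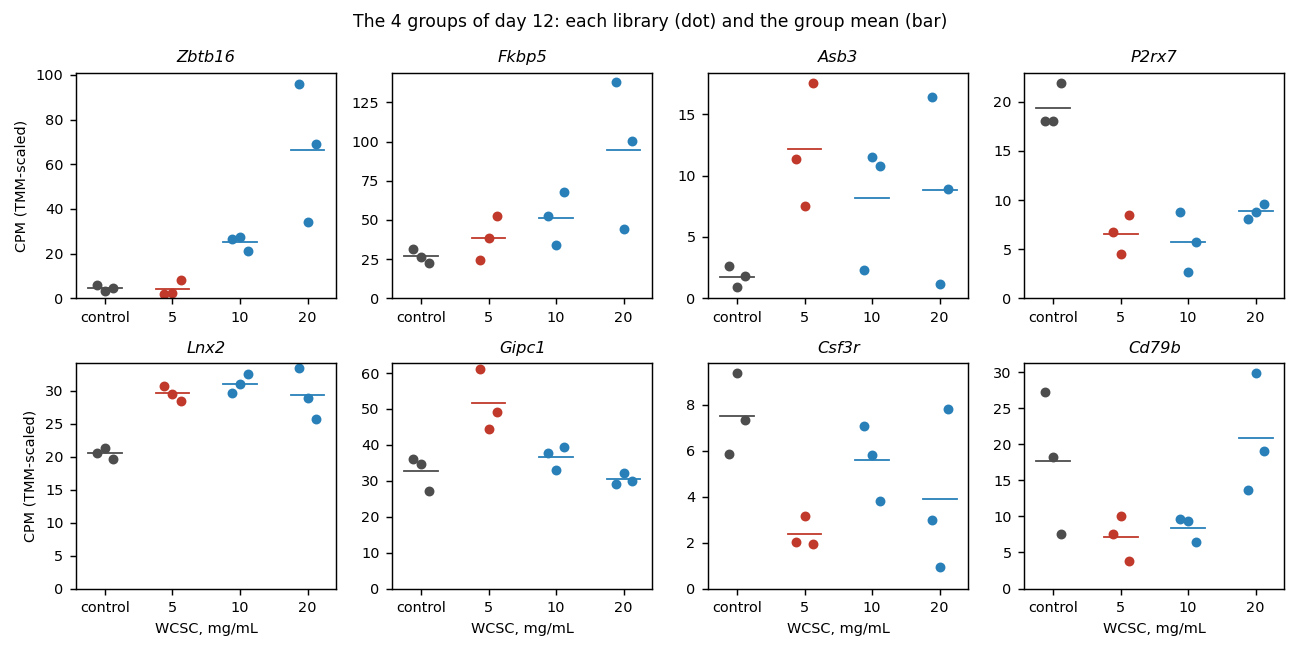
CPM (TMM-scaled, y axis, from 0) in each library of 12 days for 8 genes by dose of WCSC (x axis, mg/mL), with control at the low end; bars are group means (n = 3). Zbtb16 at 5 mg/mL (red) lies with the controls (grey) and below the higher doses (blue), while P2rx7 and Lnx2 lie at similar levels at each dose and apart from control.

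The effect of 5 mg/mL at 12 days was last set against its effect at 6 days, in lungs with their own controls. The difference of the 2 effects was called in 0 genes by edgeR (0%), 0 by limma voom and 2 by DESeq2 (0.0175%), with 234, 1602 and 289 genes under an unadjusted 0.05 (2.05%, 14% and 2.53%). At 6 days 538 genes (4.71%) were under an unadjusted 0.05 for 5 mg/mL against control in edgeR and 0 were called. The other tools gave more genes at that level for 6 days. DESeq2 put 641 (5.61%) under it and called 2, and limma voom put 2250 (19.7%) under it and called 0. Of the 13 genes that stood apart at 12 days, 10 had the same sign at 6 days (76.9%, against 53% of all genes), 0 had an unadjusted p under 0.05 at 6 days, and the sizes on the log2 scale ran from 0.53 to 2.77 at 12 days and from 0.01 to 0.72 at 6 days. Ptgds was 1 of the 3 with opposite signs, at 5.40, 3.26 and 1.96 CPM in the 5 mg/mL lungs of 6 days and 8.42, 5.96 and 3.38 CPM in the control lungs of 6 days. The difference between its effects, 12 days minus 6 days, was 2.85 (SE 0.86). Serpina1 also lay on opposite sides: in the 6-day lungs it had 31.5, 18.5 and 25.4 CPM at 5 mg/mL and 9.57, 4.34 and 21.8 CPM in control lungs, and the difference between its effects was -2.13 (SE 0.67).

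DESeq2's 2 genes for the difference of the effects were Elavl2, an RNA-binding protein known from neurons, and Trat1, an adaptor of the T cell receptor. Elavl2 had 6.25, 14.8 and 8.75 CPM in the 5 mg/mL lungs of 12 days, against 2.43, 2.89 and 3.05 CPM in their controls, and 0, 1.96 and 2.85 CPM in the 5 mg/mL lungs of 6 days, against 10.7, 9.49 and 5.07 CPM in their controls. The groups did not overlap on either day, and they lay in opposite orders (log2 difference of the effects 4.28 in DESeq2, adjusted p = 0.041). Trat1 had 0.128, 0.904 and 0.445 CPM in the 5 mg/mL lungs of 12 days, against 0.404, 2.17 and 1.25 CPM in their controls, and 2.75, 4.57 and 0.534 CPM in the 5 mg/mL lungs of 6 days, against 0 reads in all 3 of their controls. Its call rests on those 3 libraries at 0. The neutrophil list, with a median of -0.50 at 12 days, had 0.13 at 6 days, and S100a8 averaged 240 ± 141 CPM in the 5 mg/mL lungs of 6 days and 125 ± 109 CPM in their controls. The B cell and plasma cell list had a median of -0.13 at 6 days, with 8 genes below and 6 above control.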

How the data were processed

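Total RNA of 24 rat lung samples (Trizol) was sequenced as 3' tags with a QuantSeq kit, per the labels' protocols. The values are the raw read counts per gene symbol that the authors deposited, 1 file a library. Bowtie2, bedtools and the rn6 build are named in the submitters' processing notes, without versions. The sources used here do not give the annotation or whether counting used strand. Each file has 17048 lines. For 149 symbols that repeat, the line with the highest total was kept (167 lines left out, 0.772% of counts). In R 4.3.3, edgeR 4.0.16 fitted 1 model of 8 group means to all 24 libraries (filterByExpr, TMM factors 0.804 to 1.12, quasi-likelihood test, 16 residual degrees of freedom, common biological coefficient of variation 0.335), with contrasts for each comparison and Benjamini-Hochberg adjustment over 11421 genes at 0.05. CPM are TMM-scaled. DESeq2 1.42.0 and limma 3.58.1 voom were alternatives. Counting error is covered by these models only as far as reads are independent molecules. Only the edgeR fit was tested on simulated data, with known changes set in genes of higher CPM. DESeq2, limma voom, the list counts and changes in genes of low CPM were not tested in that way.

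Genes were named by a rule: calls, genes with unadjusted p under 0.01 and separated groups, the member of each of 45 lists with the smallest p if under 0.05, and 16 set genes. The other genes given with values (list members whose groups did not overlap, and marker or list genes such as Ager, Fasn, Mzb1, Mylk and RT1-A2) fall outside the rule and were chosen after their values were seen. The members, lists and genes were chosen with earlier results of these data known. One listed gene is not reported here by itself.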

Additional observations from a re-analysis of the deposited data

How the results depend on the processing

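Over other scalings, no filter on low counts, DESeq2, limma voom, fits to fewer libraries, a replicate block, repeated symbols or globin and ribosomal RNA genes left out, a covariate for genes detected, and each library left out in turn (17 settings), 33 of 39 named genes kept the sign of their log2 fold change wherever they were fitted (Gp2 and Tnf not in every setting) and 1 (Gp2, DESeq2) was called. Genes called at 5 mg/mL against control numbered 1 in DESeq2 and 0 with any library left out. Of 45 list medians 37 moved by less than the spread between replicates and 20 kept their sign throughout. Between days DESeq2 called 2, against 10 mg/mL the 12-library fit called 1, and against 20 mg/mL DESeq2 called 6, limma voom 1 and the 12-library fit 1. Unadjusted p under 0.05 for 5 mg/mL against control held for 143 genes, 677 in limma voom, 252 in the 6-library fit, 239 with the covariate, and 104 to 280 with a library left out (280 without control replicate 2). Between days 234 became 1602 in limma voom, 361 with the replicate block and 178 to 972 with a library left out (972 without 5 mg/mL replicate 3 of 6 days, 475 without control replicate 1 of 6 days, 394 without control replicate 1 of 12 days). Against 10 mg/mL 169 became 550 in limma voom, 269 in the 12-library fit, 268 with the covariate and 84 to 286 with a library left out. Against 20 mg/mL 416 became 243 to 710 with a library left out. The causes were not tested.

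Signs turned in 6 genes. Cebpd was -0.00013 with RLE factors, -0.00012 in DESeq2, -0.14 in limma voom, -0.00033 in the 6-library fit, -0.0036 with the replicate block and -0.0017 with the covariate. Nqo1 was 0.019 in limma voom. Cyp1a1 was 0.065 with the block and 0.034 with the covariate, and Gpnmb was -0.00097 with the block. With a library left out, Cyp1a1 ran from -0.54 to 1.19, Nqo1 from -0.23 to 0.018, Cebpd from -0.24 to 0.21, Zbtb16 from -1.08 to 0.19, Cxcl1 from -0.049 to 1.47 and Gpnmb from -0.25 to 0.31.

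The replicate numbers were not shown to pair the libraries: deviations of same-numbered libraries correlated at -0.154, 0.0084 and 0.123 across genes. The replicate block left 0 genes called for 5 mg/mL against control, with 205 under an unadjusted 0.05.

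With 5048827 to 7820928 counts in the 6 libraries, genes of a few CPM rest on few reads, and for 11421 genes the median 95% interval reached 0.69 on the log2 scale to either side.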
